A study of Sordaria macrospora with 14 samples.

Results

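Transcript levels in sexually developing mycelium of the filamentous ascomycete Sordaria macrospora were compared between a strain lacking spt3 and the mean of 2 other deletion strains, Δasm2 and ΔSMAC_03952. The comparison rests on 6 of the 14 libraries of the series, 2 from each of the 3 deletion strains, and on every gene model of the deposited table, of which 9499 of 9869 had enough counts to be tested. No wild-type level enters the contrast, although all 14 libraries shared the filter, the scaling and the estimate of spread. A gene that departs in Δspt3 is thus set against strains that also carry a deletion. S. macrospora is self-fertile and forms flask-shaped fruiting bodies, the perithecia, in which ascospores develop.

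Each strain was grown on corn meal medium at 25 °C for 6 days. Mycelium came from liquid culture. Perithecia came from solid cultures, were treated with ethanol for 10 min and were then scraped off and homogenised. The labels' text on extraction also mentions RNA from microdissection without saying for which samples, and samples are described here by their named tissue. A further 4 groups, which the comparison itself does not use, served to place its genes: wild-type mycelium and the perithecia of the wild type, Δasm2 and ΔSMAC_03952. Perithecia of Δspt3 were not analysed here. Each of the 7 groups consisted of 2 samples described as independent biological replicates. How the deletion strains were made, whether each is 1 isolate, and whether they carry further markers are not stated in the labels. Markers of the tissue could not be examined by name, because no table used here gives names or products for the identifiers.

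In budding yeast, Spt3 is a subunit of SAGA, a coactivator complex that modifies histones and helps to bring the TATA-binding protein to promoters. Spt3 is among the subunits that contact that protein. In yeast, SAGA is known to act on the transcription of a large part of the genome, and cells lacking Spt3 have defects in mating and sporulation. These roles are background from yeast and were not measured here.

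Total counts in the 6 libraries were 16369408 and 14038966 for Δspt3, 16566840 and 9219211 for Δasm2, and 7935359 and 18483046 for ΔSMAC_03952. Levels are given as counts-per-million (CPM) on library sizes scaled with the TMM method, first for replicate 1 and then for replicate 2. Fewer gene models reached 1 CPM in the Δspt3 libraries (8452 and 8468) than in the 4 libraries of the other mutants, where 8936 to 9046 did so. The TMM factor of Δspt3 replicate 1 was 0.805, against 0.932 to 0.987 in the other 5 libraries of the comparison. Within Δspt3, the median absolute log2 difference between replicates was 0.411, and Spearman's correlation of the replicates across genes was 0.970. Fewer cells and less RNA per cell cannot be told apart in such bulk libraries, and a CPM value is a share of the RNA sequenced.

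The deleted gene was examined first where its identifier is the strain's name. SMAC_03952 stood at 21.3 and 25.1 CPM in ΔSMAC_03952 mycelium, at 231 and 270.0 CPM in Δasm2, and at 108 and 145 CPM in Δspt3. The ΔSMAC_03952 libraries were thus the lowest and the Δasm2 libraries the highest, with Δspt3 between them and no overlap. Wild-type mycelium held the gene at 239.5 and 237.4 CPM. In perithecia it stood at 45.7 and 35.2 CPM in ΔSMAC_03952, against 171 and 180 CPM in the wild type. Reads of the gene thus remained in its deletion strain, and their source was not tested. Set against Δasm2 alone, Δspt3 was the lower strain (log2 fold change -0.99, edgeR adjusted p = 0.0023). The contrast with the mean of both mutants nevertheless called it higher in Δspt3 (log2 fold change 0.73 ± 0.19 SE, adjusted p = 0.00498 in edgeR), and that mean includes the strain from which it was deleted. With the 4 libraries merged as 1 reference group its log2 fold change was -0.12 (edgeR adjusted p = 0.914), and without Δspt3 replicate 2 it was 0.50 (edgeR adjusted p = 0.0697). The identifiers of asm2 and spt3 are not paired with those names in the tables used here, so their deletions could not be examined.

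Gene models departed in Δspt3 in both directions and in large numbers. At an adjusted p under 0.05 in edgeR's quasi-likelihood test, 5360 of 9499 genes (56.4%) differed: 2657 were higher in Δspt3 (28% of all tested) and 2703 were lower (28.5%). A fit of only the 6 libraries compared called 4125 genes, 1920 higher and 2205 lower, and leaving out Δspt3 replicate 1 gave 4520. Without TMM scaling, on plain library totals, 2231 genes were higher and 2902 lower, and the log2 fold changes of all genes had a median of -0.11, against 0.01 with it. The typical fall was larger than the typical rise. Among the higher genes the median absolute log2 fold change was 1.17, and 1595 changed at least 2-fold, 551 at least 4-fold and 108 at least 16-fold. Among the lower genes the median was 1.96, and 2137 changed at least 2-fold, 1328 at least 4-fold and 593 at least 16-fold. No read of 179 of the lower genes was counted in either Δspt3 library, and their fitted fold changes depend on a small count that the model adds. With these genes set to 3 counts over the Δspt3 group, the median log2 fold change of the lower genes was -1.92, against -1.96 as fitted. Levels were also read without a test, from the TMM-scaled CPM of the same 6 libraries. Δspt3 was outside the range of the 4 libraries of the other mutants for 57.1% of all genes tested. Both its libraries lay above for 2670 genes (28.1%) and below for 2753 (29%). These counts share their values and scaling with the test and are a description only.

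**Figure D1:**
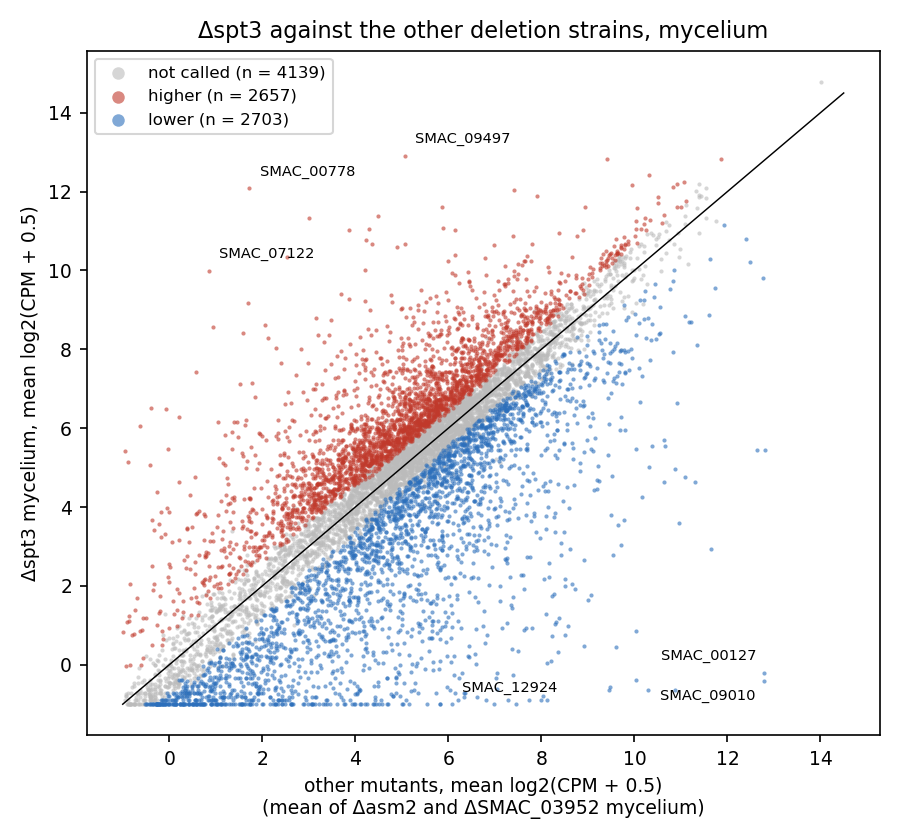
Each point is a gene model. The horizontal axis is its mean log2(CPM + 0.5) in Δasm2 and ΔSMAC_03952 mycelium and the vertical axis the same in Δspt3 mycelium, with a diagonal line of equal level. Genes called higher (2657, red), lower (2703, blue) and not called (grey) are shown, and 6 of the genes named in the text are labelled. SMAC_09010 and SMAC_00127, at the lower right, lie farthest below the line.

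The genes called higher took 50.4% and 49.6% of all counts in the Δspt3 libraries, against 19.6% to 22.1% in the 4 libraries of the other mutants. The genes called lower took 8.13% and 8.51% of the counts in Δspt3 and 34.3% to 39% in the other mutants. These shares describe the genes by the values that chose them. The wild type, whose levels do not enter the contrast, resembled the other mutants in both: in its mycelium the higher genes took 19% and 19.5% of the counts and the lower genes 41.3% and 38.6%.

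The higher gene with the widest gap between the libraries was SMAC_00778, at 5052 and 3763 CPM in Δspt3. It stood at 2.32 and 1.21 CPM in Δasm2 and at 8.26 and 2.32 CPM in ΔSMAC_03952. Both Δspt3 libraries were far above the other 4 (log2 fold change 10.50 ± 0.69 SE, adjusted p = 1.08e-07 in edgeR). Wild-type mycelium was also low for it, at 17.2 and 3.96 CPM.

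The next widest gap was that of SMAC_07122, at 1140 and 912 CPM in Δspt3. It did not exceed 1.87 CPM in the other mutants, where it stood at 0.774 and 1.87 CPM in Δasm2 and at 1.55 and 1.22 CPM in ΔSMAC_03952. Its log2 fold change was 9.63 ± 0.30 SE (adjusted p = 1.73e-09 in edgeR), with no overlap between the groups. It was also low in the wild type, at 1.13 and 1.20 CPM in mycelium and 1.98 and 2.62 CPM in perithecia.

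In absolute terms the largest gains were those of SMAC_09497 and SMAC_02851. SMAC_09497 stood at 8332 and 7068 CPM in Δspt3, at 25.0 and 4.83 CPM in Δasm2 and at 254 and 36.1 CPM in ΔSMAC_03952. Both Δspt3 libraries were above the rest, but the reference libraries spread widely. The fitted log2 fold change was 7.36, with an SE of 0.77 (edgeR adjusted p = 5.47e-06). That value ranged from 6.90 without ΔSMAC_03952 replicate 2 to 8.28 without replicate 1, was 8.15 without Δasm2 replicate 1 and 6.94 without Δasm2 replicate 2, and was 6.59 with the 4 reference libraries merged. SMAC_02851 stood at 9516 and 5518 CPM in Δspt3, at 771 and 1072 CPM in Δasm2 and at 590.1 and 429 CPM in ΔSMAC_03952. Already an abundant transcript in the reference strains, it was 11.0-fold higher in Δspt3 (log2 fold change 3.46 ± 0.32 SE, adjusted p = 1.75e-06 in edgeR), again without overlap.

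The lower genes with the widest gaps were also those with the largest losses in CPM. SMAC_09010 stood at 7036 and 4118 CPM in Δasm2 and at 9838 and 8814 CPM in ΔSMAC_03952. In Δspt3 it was nearly absent, with 5 and 2 counts, or 0.380 and 0.149 CPM. Its log2 fold change was -14.69 ± 0.64 SE (adjusted p = 5.96e-09 in edgeR). It was -15.50 without Δspt3 replicate 1, a value that rests on 2 counts. The wild type held it at 2999 and 2973 CPM in mycelium and at 9623 and 6955 CPM in perithecia, and mutant perithecia at 14459 and 14021 CPM in Δasm2 and at 19484 and 18499 CPM in ΔSMAC_03952. SMAC_09010 was thus abundant in all 12 libraries of the other strains.

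SMAC_00127 stood at 7312 and 8876 CPM in Δasm2 and at 4858 and 8116 CPM in ΔSMAC_03952. The Δspt3 libraries held 1 and 11 counts of it, or 0.0759 and 0.822 CPM, far below the other 4 (log2 fold change -13.94 ± 0.90 SE, adjusted p = 9.08e-08 in edgeR). The value was -16.38 without replicate 2 and -13.12 without replicate 1. Wild-type mycelium held it at 7903 and 9229 CPM.

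**Figure D2:**
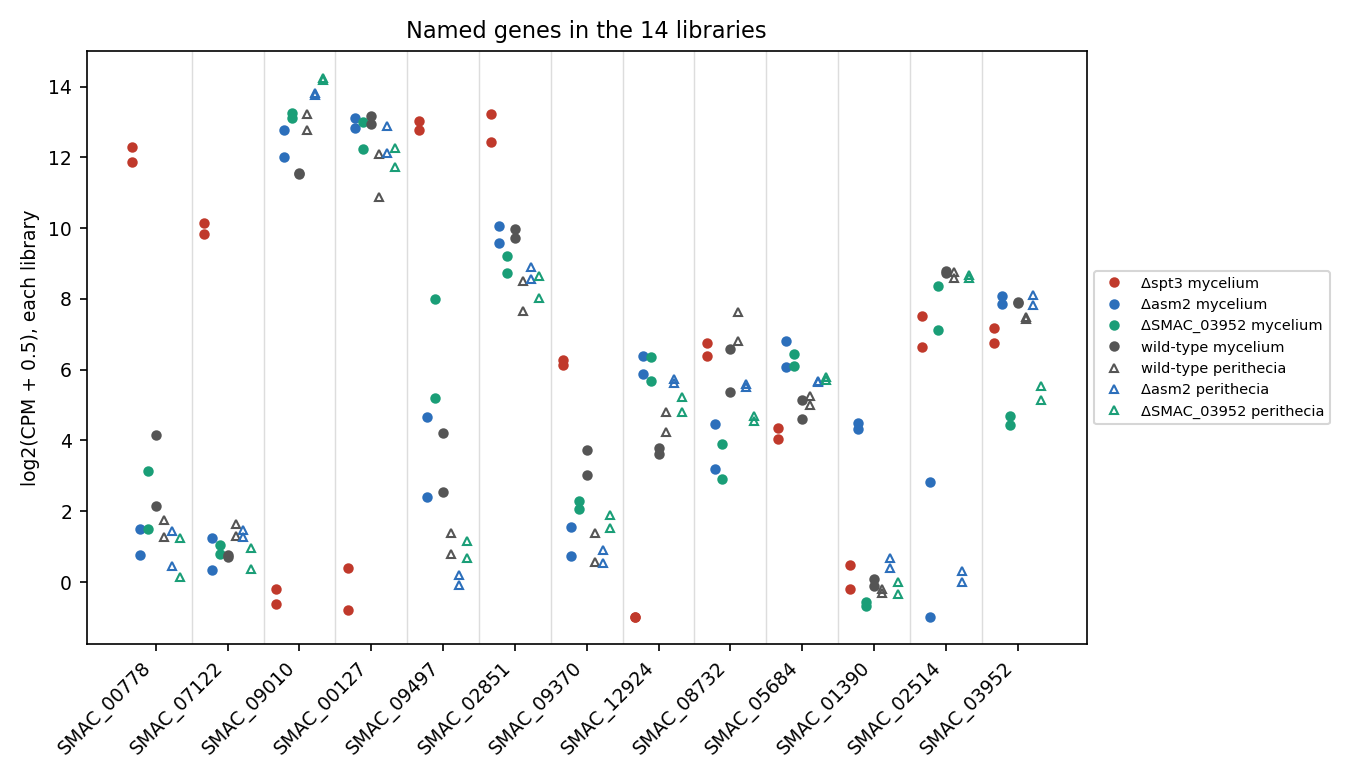
Each column is a gene named in the text and each point 1 of the 14 libraries, with filled circles for mycelium and open triangles for perithecia. The vertical axis is log2(CPM + 0.5). The Δspt3 libraries (red) lie far from every other library for SMAC_00778, SMAC_07122, SMAC_09010 and SMAC_00127, while for SMAC_08732 and SMAC_05684 wild-type mycelium (dark grey) lies nearer to Δspt3 than the other mutants do.

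Some genes were all but switched between the strains. Of 6685 genes at 10 CPM or more in all 4 libraries of the other mutants, 39 had at most 3 counts over both Δspt3 libraries together, and 16 of these had none. Of the 39 genes, 34 also reached 10 CPM in both wild-type mycelium libraries, and 38 reached 1 CPM in each of the 12 libraries of the other groups. The 12 include the 4 libraries by which the genes were chosen. The same shares over all 6685 genes were not counted. In the opposite direction, 267 tested genes were under 1 CPM in all 4 libraries of the other mutants. Of these, 11 reached 10 CPM in both Δspt3 libraries, with values between 10.9 and 108 CPM. Of the 11 genes, 9 were also under 1 CPM in both wild-type mycelium libraries and 7 in all 12 other libraries. The 12 again include the 4 that chose the genes, and the shares over all 267 genes were not counted. The highest value of any of the 11 outside Δspt3 was 4.93 CPM.

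Calls were also counted by length and by level, each in 4 bins of nearly equal size. Of the shortest gene models, 120 to 1241 bases, 23.5% were higher and 32.9% lower, and their median log2 fold change was -0.20. The next bin, from 1242 to 1853 bases, had 33.5% higher and 25.6% lower, with a median of 0.13. Median lengths nevertheless lay close together, at 1827 bases for the higher genes, 1815 for the lower ones and 1899 for those not called. With length trends removed, 5760 genes were called.

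Set against each reference strain alone, Δspt3 gave similar counts of calls. Against Δasm2, 5082 genes (53.5%) differed, 2476 higher (26.1%) and 2606 lower (27.4%). Against ΔSMAC_03952, 4624 genes (48.7%) differed, 2223 higher (23.4%) and 2401 lower (25.3%). These comparisons share the Δspt3 libraries, so their counts are given side by side only. Between the reference strains themselves, 329 genes (3.46%) differed, of which 247 were higher in Δasm2 (2.6%) and 82 higher in ΔSMAC_03952 (0.863%). Fold changes between these strains rose with gene length (Spearman's rho 0.335 across genes, which are not independent). For Δspt3 against their mean, rho was 0.045. It was -0.016 against Δasm2 alone and 0.11 against ΔSMAC_03952 alone.

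For 26 of the 5360 genes called (0.485%), the means of Δasm2 and ΔSMAC_03952 lay on opposite sides of Δspt3, which was so for 14.2% of all genes tested. The call asks for distance from the mean of these same strains, so a lower share among the genes called largely follows from the choice. For the 26 genes the mean of the references stands for neither strain. SMAC_01390 stood at 21.9 and 19.4 CPM in Δasm2 and at 0.129 and 0.174 CPM in ΔSMAC_03952, with Δspt3 at 0.380 and 0.897 CPM. All 3 strains were apart, and only Δasm2 was high, since wild-type mycelium held 0.566 and 0.417 CPM. Δspt3 was lower than Δasm2 (log2 fold change -5.00, edgeR adjusted p = 1.32e-06) and higher than ΔSMAC_03952 (1.95, edgeR adjusted p = 0.0232). Against their mean the log2 fold change was -1.52 ± 0.51 SE (adjusted p = 0.0222 in edgeR). That call was lost without Δspt3 replicate 1 (-1.07, edgeR adjusted p = 0.119) and without ΔSMAC_03952 replicate 2 (-1.42, edgeR adjusted p = 0.222), and without Δspt3 replicate 2 the value was -2.26.

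SMAC_02514 stood at 6.64 CPM and 0 in Δasm2, at 332 and 138 CPM in ΔSMAC_03952 and at 99.3 and 183 CPM in Δspt3. Δasm2 was the low strain here, while Δspt3 and ΔSMAC_03952 overlapped, and wild-type mycelium was higher than all of them, at 427 and 444 CPM. Δspt3 was higher than Δasm2 (log2 fold change 5.28, edgeR adjusted p = 0.000305), and the difference from ΔSMAC_03952 did not pass the test (-0.74, edgeR adjusted p = 0.418). Against the mean of both strains the log2 fold change was 2.27 ± 0.61 SE (adjusted p = 0.00693 in edgeR). In perithecia, too, Δasm2 was low, at 0.730 and 0.494 CPM, against 386 and 433 CPM in the wild type (log2 fold change -9.39, edgeR adjusted p = 0.000187). In mycelium the value against the mean was 6.57 without Δasm2 replicate 1 and 1.77 without Δspt3 replicate 2, and the latter missed the threshold (edgeR adjusted p = 0.0662). With the 4 reference libraries merged it was 0.25, and the call was lost (edgeR adjusted p = 0.89).

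Wild-type mycelium, which the comparison leaves out, was then set beside its genes. For each gene called, the wild type was placed on a scale from 0, the mean of the other mutants, to 1, the level of Δspt3, on mean log2 CPM. Of the genes higher in Δspt3, 2184 (82.2%) had the wild type near the other mutants (under 0.333), 310 (11.7%) had it between, and 163 (6.13%) had it near Δspt3 (over 0.667). Of the lower genes, 2263 (83.7%) had the wild type near the other mutants, 284 (10.5%) between and 156 (5.77%) near Δspt3. The median position was -0.05 for the higher genes and -0.06 for the lower ones. For 1473 higher and 1524 lower genes the wild type lay beyond the other mutants, on the side away from Δspt3. The class near Δspt3 has no upper limit, and for 62 higher and 39 lower genes in it the wild type lay beyond Δspt3 (over 1). Both wild-type libraries were inside the range of the 4 other mutant libraries for 941 higher and 1009 lower genes. These counts, and those of genes with the wild type beyond the other mutants, were not set against all genes tested.

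**Figure D3:**
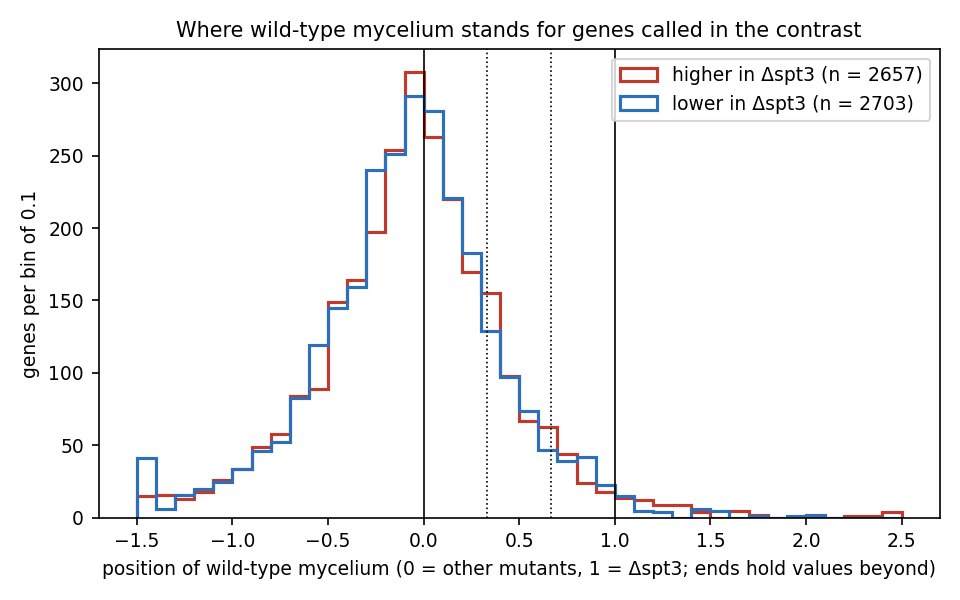
The outlines count genes per bin of 0.1, in red for those higher and in blue for those lower in Δspt3, by where wild-type mycelium lies on a scale from the other mutants (0) to Δspt3 (1). Dotted lines mark the limits 0.333 and 0.667, and the bins at each end also hold values beyond them. Both outlines peak close to 0, with medians of -0.05 and -0.06.

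The widest gaps in each class illustrate the scale. SMAC_00778 and SMAC_09010, described above, stood for the class in which the wild type is near the other mutants. SMAC_09370 was the leading higher gene with the wild type between. It stood at 70.2 and 77.3 CPM in Δspt3, at 1.16 and 2.42 CPM in Δasm2, at 4.39 and 3.66 CPM in ΔSMAC_03952 and at 12.7 and 7.72 CPM in wild-type mycelium. The Δspt3 libraries were above the rest, 28.1-fold higher than the mutants' mean (log2 fold change 4.81 ± 0.33 SE, adjusted p = 1.49e-07 in edgeR).

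SMAC_12924 was its counterpart among the lower genes. It had 0 counts in Δspt3, 83.2 and 57.9 CPM in Δasm2, 82.3 and 50.9 CPM in ΔSMAC_03952, and 13.2 and 11.7 CPM in wild-type mycelium. The wild type was below both other mutants, and Δspt3 was at least 606-fold lower than their mean, when 3 counts are assumed for the Δspt3 libraries together (edgeR adjusted p = 4.59e-08). That bound covers counting error only.

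In the leading genes of the class near Δspt3, SMAC_08732 and SMAC_05684, the other mutants were the strains apart from the wild type. That class also holds SMAC_03952, SMAC_01390 and SMAC_02514, for which the references lay on opposite sides of Δspt3. SMAC_08732 stood at 107 and 83.0 CPM in Δspt3, at 21.8 and 8.68 CPM in Δasm2 and at 14.3 and 7.02 CPM in ΔSMAC_03952, with wild-type mycelium at 95.8 and 40.9 CPM. The Δspt3 libraries were 7.48-fold above the mutants' mean (log2 fold change 2.90 ± 0.40 SE, adjusted p = 5.23e-05 in edgeR), while the wild type reached into the range of Δspt3. In libraries the comparison does not use, the same gene was lower in mutant perithecia than in wild-type perithecia. It stood at 112 and 196 CPM in the wild type, at 47.7 and 45.2 CPM in Δasm2 (log2 fold change -1.73, edgeR adjusted p = 0.0351) and at 23.1 and 25.5 CPM in ΔSMAC_03952 (-2.66, edgeR adjusted p = 0.00318).

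SMAC_05684 was the leading lower gene of that class. It stood at 19.7 and 15.99 CPM in Δspt3 and at 23.9 and 35.1 CPM in wild-type mycelium, against 112 and 66.6 CPM in Δasm2 and 86.4 and 68.1 CPM in ΔSMAC_03952. It was 4.65-fold lower in Δspt3 than in the other mutants (log2 fold change -2.22 ± 0.27 SE, adjusted p = 1.78e-05 in edgeR), and all 4 mutant libraries were above both the Δspt3 and the wild-type libraries.

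The genes of the comparison were then followed in perithecia, in comparisons that share no library with it. Wild-type perithecia were first set against wild-type mycelium. Perithecia were grown on solid medium and fixed in ethanol and mycelium was grown in liquid, so tissue, culture and fixation cannot be told apart there. Of all genes tested, 14.7% were higher and 13.3% lower in perithecia. Of the 2703 genes lower in Δspt3, 617 (22.8%) were lower in perithecia, and 455 (16.8%) rose. The 2657 genes higher in Δspt3 divided into 293 (11%) lower in perithecia, 423 (15.9%) higher and the rest. Among those at least 4-fold higher in Δspt3 the order was the other way, with 98 of 551 (17.8%) lower and 92 (16.7%) higher in perithecia. It was also the other way in the test against a 2-fold change, with 62 (6.65%) lower and 41 (4.39%) higher. In that test the order over all genes turned as well, with 4.48% lower and 3.32% higher. The share of the lower genes that fell in perithecia was greater among those at least 4-fold lower in Δspt3, at 383 of 1328 (28.8%). Of the genes not called in Δspt3, 12.6% were higher and 8.48% lower in perithecia. Median log2 fold changes were small, at -0.09 for the lower genes, 0.13 for the higher ones and 0.07 over all genes.

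Perithecia of the other mutants were compared with wild-type perithecia, using the same wild-type libraries both times. The strains Δasm2 and ΔSMAC_03952 are those of the main comparison, in other libraries. In Δasm2 perithecia, 5.04% of all genes were higher and 6.73% lower. Of the genes higher in Δspt3, 86 (3.24%) were higher there and 270 (10.2%) lower. Of the genes lower in Δspt3, 292 (10.8%) were higher there and 141 (5.22%) lower. The median log2 fold change was -0.17 for the former, 0.30 for the latter and 0.01 over all genes.

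In ΔSMAC_03952 perithecia, 17.4% of all genes differed from the wild type, 6.24% higher and 11.2% lower. Of the genes higher in Δspt3, 81 (3.05%) were higher there and 439 (16.5%) lower. Of the genes lower in Δspt3, 363 (13.4%) were higher there and 254 (9.4%) lower. Medians were -0.22 and 0.21, against -0.01 over all genes. In both strains, then, a larger share of the genes higher in Δspt3 than of all genes was lower in mutant than in wild-type perithecia. A smaller share was higher there. Of the genes lower in Δspt3, a larger share than of all genes was higher there. Lower calls outnumbered higher ones over all genes too. Among genes not called in Δspt3 they were 5.51% and 2.44% in Δasm2, and 8.87% and 3.6% in ΔSMAC_03952.

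The same held for the genes whose wild-type mycelium level was near that of the other mutants. Of those 2184 higher genes, 193 (8.84%) were lower in Δasm2 perithecia and 340 (15.6%) lower in ΔSMAC_03952 perithecia, against 74 and 66 higher. Of those 2263 lower genes, 232 (10.3%) were higher in Δasm2 perithecia and 326 (14.4%) in ΔSMAC_03952 perithecia, against 135 and 233 lower. Among the 163 higher genes with the wild type near Δspt3, 30 (18.4%) were lower in Δasm2 perithecia and 40 (24.5%) in ΔSMAC_03952 perithecia. Among the 156 lower genes with the wild type near Δspt3, 26 (16.7%) were higher in Δasm2 perithecia and 15 (9.62%) in ΔSMAC_03952 perithecia.

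These counts rest on 2 libraries per group and fell when single libraries were left out. The 292 genes lower in Δspt3 and higher in Δasm2 perithecia were 121 and 93 without Δasm2 perithecia replicates 1 and 2, and 172 and 110 without wild-type perithecia replicates 1 and 2. The 363 genes lower in Δspt3 and higher in ΔSMAC_03952 perithecia were 194 and 137 without ΔSMAC_03952 perithecia replicates 1 and 2, and 176 and 187 without those of the wild type. The 270 genes higher in Δspt3 and lower in Δasm2 perithecia were 93 and 74 without the Δasm2 perithecia replicates and 139 without wild-type perithecia replicate 1.

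The 439 genes higher in Δspt3 and lower in ΔSMAC_03952 perithecia were 170 and 144 without the ΔSMAC_03952 perithecia replicates and 242 without wild-type perithecia replicate 1. In the wild type, the 423 genes higher in Δspt3 and in perithecia were 229 and 156 without wild-type mycelium replicates 1 and 2. The 455 genes lower in Δspt3 and higher in perithecia were 270 and 185 without those libraries, and 301 without wild-type perithecia replicate 1, whose omission also gave 185 in place of 293 genes higher in Δspt3 and lower in perithecia. The 617 genes lower in both stayed at 413 or more. In all 21 alternatives the share of the genes lower in Δspt3 that were higher in mutant perithecia was above that of all genes, between 1.92 and 3.04 times for Δasm2 and between 1.93 and 4.86 times for ΔSMAC_03952.

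**Figure D4:**
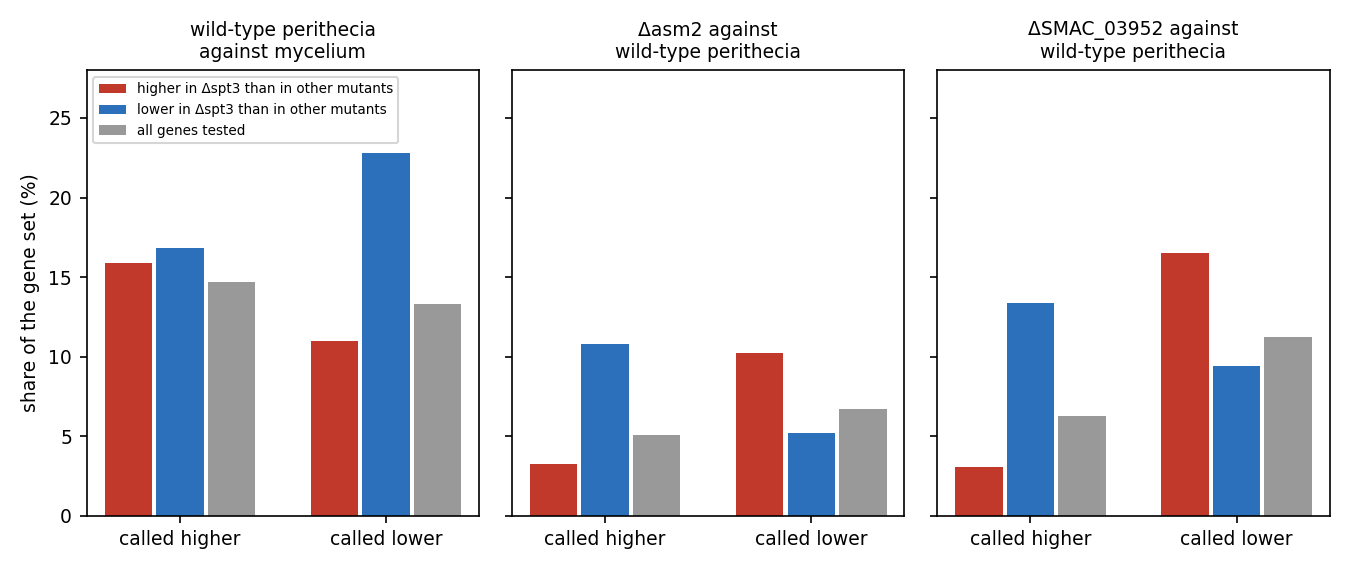
Bars give the percent of genes called higher or lower in each of 3 comparisons that share no library with the main one: wild-type perithecia against wild-type mycelium, and Δasm2 and ΔSMAC_03952 perithecia against wild-type perithecia. Genes higher in Δspt3 (red), genes lower in Δspt3 (blue) and all genes tested (grey) are set side by side. Of the lower genes, 22.8% fell in wild-type perithecia, against 13.3% of all genes.

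Genes were also placed beside their neighbours. Gene order was taken from the RefSeq annotation ASM3387043v1, in which 9531 gene models were found and 8517 pairs of tested genes are adjacent. The next gene was also higher for 840 of 2427 higher genes (34.6%), against 28.3% over all pairs. The next gene was also lower for 918 of 2347 lower genes (39.1%), against 27.6% over all pairs. It was of the opposite direction for 495 higher genes (20.4%) and 486 lower ones (20.7%). Runs of at least 5 consecutive genes changed the same way numbered 21 among the higher genes, with 125 genes in them, and 40 among the lower genes, with 239. They lie among 9173 tested gene models found in the annotation. How many such runs would arise without a link between neighbours was not tested. The labels do not state whether counting used strand, and reads from overlapping neighbours cannot then be told apart.

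The longest run of higher genes held 12 genes, in the order SMAC_09666, SMAC_09621, SMAC_09622, SMAC_09623, SMAC_08535 to SMAC_08541 and SMAC_12797. It was chosen by its values in the comparison, which therefore describe it. Its genes took 1.16% and 0.919% of all counts in the Δspt3 libraries and 0.0357% to 0.0568% in the other mutants. Log2 fold changes ran from 0.96 to 7.98, with a median of 4.67.

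SMAC_08536 had the largest fold change of the run, with 1697 and 982 CPM in Δspt3, 7.09 and 6.04 CPM in Δasm2 and 3.87 and 4.53 CPM in ΔSMAC_03952 (log2 fold change 7.98, SE 0.35). Wild-type mycelium was as low, at 8.13 and 6.15 CPM. SMAC_08541 was the most abundant, with 4707 and 3723 CPM in Δspt3, 146 and 259 CPM in Δasm2 and 147 and 152 CPM in ΔSMAC_03952 (log2 fold change 4.60, SE 0.25). SMAC_12797, at the end of the run, stood at 4068 and 2418 CPM in Δspt3 and between 47.5 and 77.9 CPM in the other mutants (log2 fold change 5.78, SE 0.31). For these 3 genes the Δspt3 libraries were far above all others.

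The smallest change of the run was that of SMAC_08537, at a log2 fold change of 0.96 ± 0.29 SE (adjusted p = 0.0132 in edgeR), and it was the single gene of the 12 whose libraries overlapped. Its call was lost without Δasm2 replicate 1 (0.81, edgeR adjusted p = 0.0591) and without Δspt3 replicate 1 (0.84, edgeR adjusted p = 0.0896). For 10 of the 12 genes wild-type mycelium was near the other mutants. For SMAC_08539 and SMAC_08540 it was between: SMAC_08540 stood at 546 and 449 CPM in Δspt3, 296 and 195 CPM in wild-type mycelium and 60.8 to 97.3 CPM in the other mutants.

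In a comparison whose levels do not enter the contrast, 8 of its 12 genes were lower in wild-type perithecia than in wild-type mycelium and 0 were higher, against 13.3% and 14.7% of all genes. SMAC_08540 fell from 296 and 195 CPM in wild-type mycelium to 7.94 and 11.8 CPM in perithecia (log2 fold change -4.64, edgeR adjusted p = 6.19e-06). SMAC_08541 fell from 358 and 323 CPM to 109.7 and 95.1 CPM (-1.73, edgeR adjusted p = 0.000934), and the libraries of the tissues did not overlap for either gene. Adjacent genes are not independent of each other, so the 8 genes are not 8 separate observations.

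**Figure D5:**
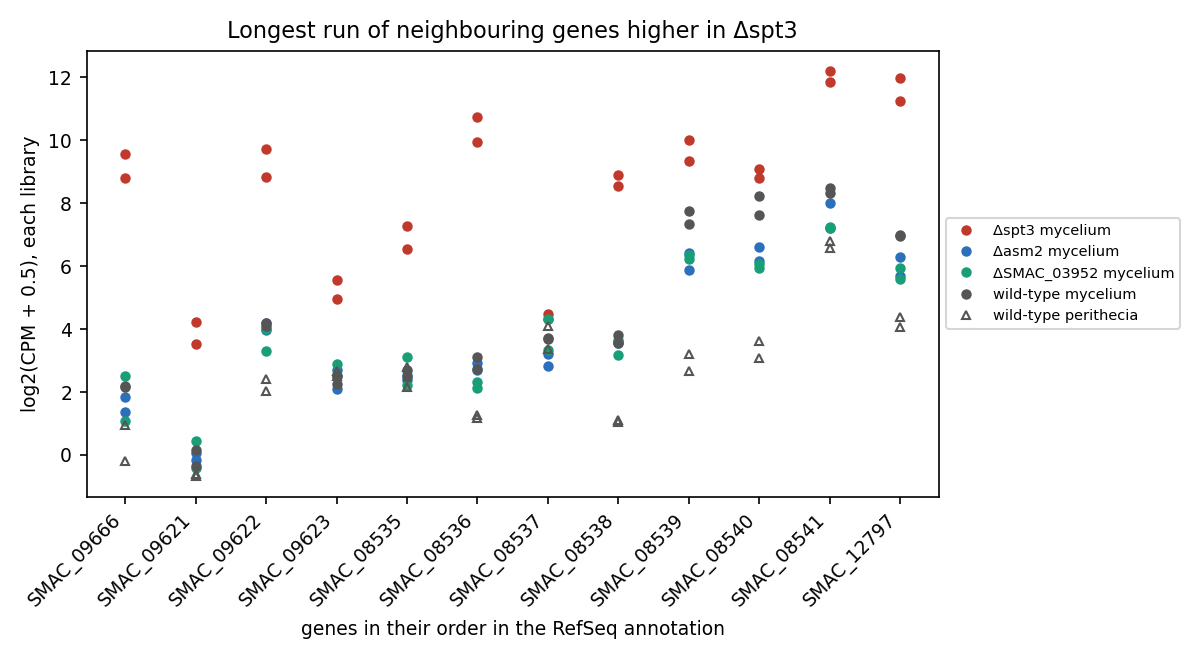
The 12 genes of the longest run of higher genes are on the horizontal axis in their order in the RefSeq annotation, with log2(CPM + 0.5) on the vertical axis. Each point is a library, with circles for the mycelium of the 4 strains and triangles for wild-type perithecia. The Δspt3 libraries (red) lie above those of the other mutants for 11 of the 12 genes, and the strains overlap for SMAC_08537.

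Among the lower genes, 2 runs also reached 12 genes. The first of them in gene order began with SMAC_06107 and ended with SMAC_09549. It too was chosen by its values. Its genes together took 0.0014% and 0.00162% of the counts in the Δspt3 libraries and 0.0194% to 0.05% in the other mutants. Of its 12 genes, 3 had no count in either Δspt3 library and 2 had 1 to 3 counts over both. The 3 without a count, SMAC_06107, SMAC_06109 and SMAC_09549, were low in the other mutants too, at 0.110 to 2.58 CPM.

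SMAC_09553 stood at 1.06 and 0.374 CPM in Δspt3, at 58.5 and 41.1 CPM in Δasm2 and at 65.7 and 93.1 CPM in ΔSMAC_03952 (log2 fold change -6.44 ± 0.45 SE, adjusted p = 1.56e-07 in edgeR). The value was -7.39 without Δspt3 replicate 1. SMAC_09550 had 2 counts in the Δspt3 libraries and 5915 in the other mutants, a level 1580-fold higher in the latter, with a 95% exact interval from 438 to 13100 that covers counting error only. Its fitted log2 fold change was -10.13, and it was -13.40 and -9.20 without Δspt3 replicates 1 and 2 and -9.39 without ΔSMAC_03952 replicate 2. In wild-type perithecia 5 genes of the run were higher than in wild-type mycelium and 1 was lower, against 14.7% and 13.3% of all genes. The 5 include SMAC_06107, SMAC_06109 and SMAC_09549, which stood at only 0.499 to 3.66 CPM in wild-type perithecia. These adjacent genes are not separate observations either.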

How the data were processed

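RNA was measured in 7 groups of 2 libraries, grouped by the labels' descriptions. Raw read counts of each gene model, with its length, were deposited by the authors, per the file headers. It also holds the authors' deposited mean normalized signal, log2 fold changes and adjusted p-values, which entered no test. The submitters' processing notes name DESeq2, with no version. The aligner, counting program, genome build and strand setting are not stated in the labels.

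The table has 10014 rows: 9869 gene models and 145 second transcripts with 0 counts. The counts went into edgeR 4.0.16 under R 4.3.3 (filterByExpr by group, TMM, glmQLFit and glmQLFTest, 7 group means over all 14 libraries, Benjamini-Hochberg adjustment over 9499 genes, threshold 0.05). The 370 gene models left out held 0.00468% of the counts. The common biological coefficient of variation was 0.237, with 7 residual and 5.5 prior degrees of freedom. The contrast was Δspt3 minus the mean of both other mutants. Each SE given with a fold change was derived from the test and was not estimated separately. It is the absolute log2 fold change divided by the square root of the F statistic. For genes near 0 counts in Δspt3 it rests, like the fold change, on the small count that the model adds. On simulated counts it recovered 93 of 100 changes of 4-fold and 28 of 100 of 2-fold among 9402 genes, with 5 unchanged genes called. The simulation changed no other genes, whereas 56.4% of genes were called in the data. It therefore does not measure error where most genes change. Library totals ran from 6383079 to 24029990. Replicates differed by more than sampling noise in every group (chi-square per gene 11.4 to 121), so each was counted.

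Genes were named by rule: called, with libraries that do not overlap and the higher side at 10 CPM or more in each library, ranked by the gap on log2(CPM + 0.5), 2 per direction because no names were paired with the identifiers. To these were added 2 per direction by difference in CPM, the first per wild-type class and direction, 2 with the references on opposite sides, and SMAC_03952. Genes of the longest runs were named after their values were seen. The comparison and lists were chosen with earlier results of these data known. The annotation gave 0 symbols other than locus tags and served for gene order only. Alternatives included DESeq2 1.42.0 and the replicate number as a block.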

Additional observations from a re-analysis of the deposited data

Results flagged for a closer look

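For SMAC_01390 the difference of Δspt3 depended on which reference strain it was set against: the log2 fold change was -5.00 against Δasm2 and 1.95 against ΔSMAC_03952. The difference between these values, which is Δasm2 against ΔSMAC_03952, was 6.95 on the log2 scale (edgeR adjusted p = 4.29e-05). For SMAC_02514 the log2 fold changes were 5.28 against Δasm2 and -0.74 against ΔSMAC_03952, and the difference was -6.02 (edgeR adjusted p = 0.00425). Both genes were named because the reference strains lay on opposite sides of Δspt3. With 2 libraries in each group, single libraries that stand apart within a group were not examined.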

How the results depend on the processing

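The count of 5360 genes stayed between 4125 and 5799 in 16 alternatives, the test against a 2-fold change left out, and 43.5% to 50.8% of the calls were higher. The lowest count came from the 6 libraries compared alone. With plain library totals, 2231 genes were higher and 2902 lower (43.5% higher), and the log2 fold changes of all genes had a median of -0.11. Tested against a 2-fold change, 2461 genes were past the threshold in the main comparison, 2462 against Δasm2, 2284 against ΔSMAC_03952, 741 in wild-type perithecia, 231 in Δasm2 perithecia and 437 in ΔSMAC_03952 perithecia.

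In that test, of the genes higher in Δspt3, 41 (4.39%) were higher and 62 (6.65%) lower in wild-type perithecia. That is the other way round from the main counts, and so it was over all genes, at 3.32% higher and 4.48% lower. In Δasm2 and ΔSMAC_03952 perithecia, 22 (2.36%) and 53 (5.68%) were lower, against 1.57% and 3.43% of all genes. Of the lower genes, 90 (5.89%) were higher and 197 (12.9%) lower in wild-type perithecia. In Δasm2 and ΔSMAC_03952 perithecia, 40 (2.62%) and 87 (5.69%) of them were higher, against 0.863% and 1.17% of all genes. With members limited to changes of 4-fold, the same counts were 92 (16.7%), 98 (17.8%), 67 (12.2%) and 116 (21.1%) for the higher genes. All genes stood at 14.7%, 13.3%, 6.73% and 11.2%. For the lower genes the counts were 252 (19%), 383 (28.8%) and 190 (14.3%) up to Δasm2 perithecia, against 14.7%, 13.3% and 5.04%. DESeq2 put 479 lower genes higher in Δasm2 perithecia. With length trends removed, 413 higher genes were lower in Δasm2 perithecia (14.1%, against 8.9% of all genes). With counts thinned to the smallest library, 276 higher genes were higher in wild-type perithecia (12.5%, against 11.5% of all genes). Then 163 were lower in Δasm2 perithecia (7.39%, against 4.96%) and 283 in ΔSMAC_03952 perithecia (12.8%, against 8.85%). The share over all genes thus moved along with these counts. The causes of these moves were not tested.

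Leaving out 1 library at a time gave 4520 to 5272 genes in the main comparison, 3907 to 4860 against Δasm2, 3447 to 4307 against ΔSMAC_03952, 1396 to 1907 in wild-type perithecia, 371 to 704 in Δasm2 perithecia and 618 to 1175 in ΔSMAC_03952 perithecia. Higher genes were then higher in wild-type perithecia in 156 to 397 cases and lower in 185 to 274, and lower in Δasm2 and ΔSMAC_03952 perithecia in 74 to 256 and 144 to 417. Lower genes were higher in wild-type perithecia in 185 to 466 cases and lower in 413 to 637, and higher in Δasm2 and ΔSMAC_03952 perithecia in 93 to 291 and 137 to 374. A group left with 1 library was assumed to vary like the others.

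The replicate numbers were not taken to pair the samples, since no label says that they do and 1 pair of the main comparison missed the limit: deviations of replicate 1 from the group mean correlated at 0.489 between Δasm2 and Δspt3, 0.359 between Δasm2 and ΔSMAC_03952 and -0.11 between ΔSMAC_03952 and Δspt3. Among the perithecia groups they correlated at 0.341 to 0.443. With the replicate number as a block 5406 genes were called, 5287 of them shared with the fit without it. Of the lower genes, 345 (12.6%) were then higher in Δasm2 perithecia in place of 292, against 5.76% of all genes. The block with length trends removed called 5799. It put 433 higher genes lower in Δasm2 perithecia (14.7%, against 9.34% of all genes) and 458 lower genes higher (16%, against 7.64%).

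Of 27 genes named, 23 kept their direction and their side of the threshold in every alternative run. The exceptions were SMAC_01390, SMAC_02514, SMAC_08537 and SMAC_03952, whose log2 fold change reversed to -0.12 with the other mutants merged. Only the 6 libraries compared gave an adjusted p of 0.0517 for SMAC_01390 and 0.0625 for SMAC_08537. DESeq2 gave 0.0619 for SMAC_02514. Planned searches for letters in promoters and for protein motifs were not run, because no such sequences were used here. Depth limits genes near 0 counts in Δspt3, where fitted fold changes are not bounds.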
